A study of Caenorhabditis elegans with 3 samples.

Results

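The innexin genes of the gap junctions between the somatic gonad and the germ line of Caenorhabditis elegans were followed in adult hermaphrodites. The members were taken by name as inx-8, inx-9, inx-14, inx-21 and inx-22, and of these 5 genes 3 had a probe assigned to that gene alone: inx-8, inx-9 and inx-14, with 1 probe each. The genes inx-21 and inx-22 have no probe listed under their names in the annotation used and were not analysed here. The 3 measured members stand among 15168 genes with such probes, and 19 other innexin genes served as their background.

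The adult hermaphrodites are labelled TP11 adult w/ emb 2, taken here to mean that they carried embryos. Their RNA and a mixed wild-type (wt) reference RNA shared each 2-colour array, with 1 array for each of preps 1, 2 and 3 and no other group. The labels give no strain, allele, age or dye and do not say that the preps came from separate cultures. A p-value here thus covers a spread between preps that may be technical and that is in large part pooled over all probes. Positive log2 ratios are taken as adult RNA in excess, because the labels list the adults as the second channel. This direction is likely and not settled, and "higher" and "lower" rest on it throughout.

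Innexins are the gap junction proteins of invertebrates. In the C. elegans gonad, INX-8 and INX-9 form the hemichannels of the somatic sheath cells, and INX-14 pairs with INX-21 or INX-22 in the hemichannels of the germ cells. The coupled channels are needed for germ cell proliferation, and they keep oocytes from maturing until the sperm signal, the major sperm protein, arrives. They have also been described as a route by which the soma passes malonyl-CoA to the germ line in support of embryogenesis.

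The germ cell subunit gene inx-14 was higher in the adults than in the reference, and the sheath subunit genes inx-8 and inx-9 did not pass the test. After each array was centred on its median, inx-14 had log2 ratios of 0.84, 0.60 and 0.94 on preps 1, 2 and 3. All 3 preps lay above 0 and, on arrays centred but not scaled, within a narrow band. The mean was 0.79 ± 0.17 (SD, n = 3), a ratio of 1.73-fold with a 95% interval of 1.33 to 2.26-fold. The adjusted p in limma was 0.0053. With the arrays scaled to a common spread the SD of inx-14 was 0.43, and with quantile normalization it was 0.26. Of all 19710 probes tested, 32.0% passed the threshold of 0.05 in either direction, 15.8% as higher and 16.2% as lower, so a call for a single gene is common on these arrays.

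The sheath gene inx-8 had log2 ratios of 0.57, −0.04 and 0.37 on preps 1, 2 and 3. Preps 1 and 3 were positive and prep 2 was close to 0, and before centring prep 2 stood at 0.03. The mean was 0.30 ± 0.31 (SD, n = 3), with a 95% interval of 0.93 to 1.63-fold and an adjusted p of 0.26 in limma. The other sheath gene, inx-9, had log2 ratios of 0.68, −0.24 and 0.07. Prep 1 alone was well above 0, prep 2 was below it and prep 3 near it. Its mean was 0.17 ± 0.47 (SD, n = 3), with a 95% interval of 0.82 to 1.53-fold and an adjusted p of 0.59 in limma, and without prep 1 it was −0.09. These intervals reach 1.63 and 1.53-fold, so the missing calls do not show that sheath innexin RNA was equal in the adults and the reference.

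inx-8 and inx-9 are paralogs and lie next to each other, with no protein-coding gene between them in the RefSeq gene table of the assembly WBcel235. Their RNAs may bind each other's probes, so the value of each is uncertain. Both had their highest ratio on prep 1 and their lowest on prep 2. The difference of inx-8 minus inx-9 was −0.10, 0.20 and 0.30 on preps 1, 2 and 3, with a mean of 0.13 ± 0.21 (SD, n = 3), which is less than its spread. The genes inx-21 and inx-22 are likewise neighbours in that table.

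The ratio of inx-14 lay above those of both sheath genes on every prep. Its log2 ratio minus that of inx-8 was 0.27, 0.64 and 0.57 on preps 1, 2 and 3 (mean 0.49 ± 0.20, SD, n = 3). Minus that of inx-9 it was 0.16, 0.84 and 0.86 (mean 0.62 ± 0.40). The mean of the sheath genes minus the germ cell gene was −0.56 ± 0.30 on the log2 scale, and it was negative on 3 of 3 preps. An exact sign-flip test over 3 preps cannot give a two-sided p below 0.25, so these differences are given as a description. They compare ratios between genes, not levels, since the brightness of different probes cannot be compared.

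The arrays differed in spread. The robust SD over all probes was 0.77 on prep 1, 0.48 on prep 2 and 0.37 on prep 3. Placed among all probes of the same array, inx-14 stood at the percentiles 84.9, 88.3 and 95.0 on preps 1, 2 and 3. Its place was high on each array, and highest on the array with the narrowest spread. Turned to the opposite direction, its percentiles would be 15.1, 11.7 and 4.97. inx-8 stood at the percentiles 77.1, 46.6 and 80.3, and inx-9 at 80.6, 30.9 and 58.7, so the sheath genes changed places widely among the probes, with prep 2 lowest for both. The SD of inx-14 over the preps was at or above that of 25.1% of the probes, against 57.1% for inx-8 and 81.8% for inx-9.

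**Figure D1:**
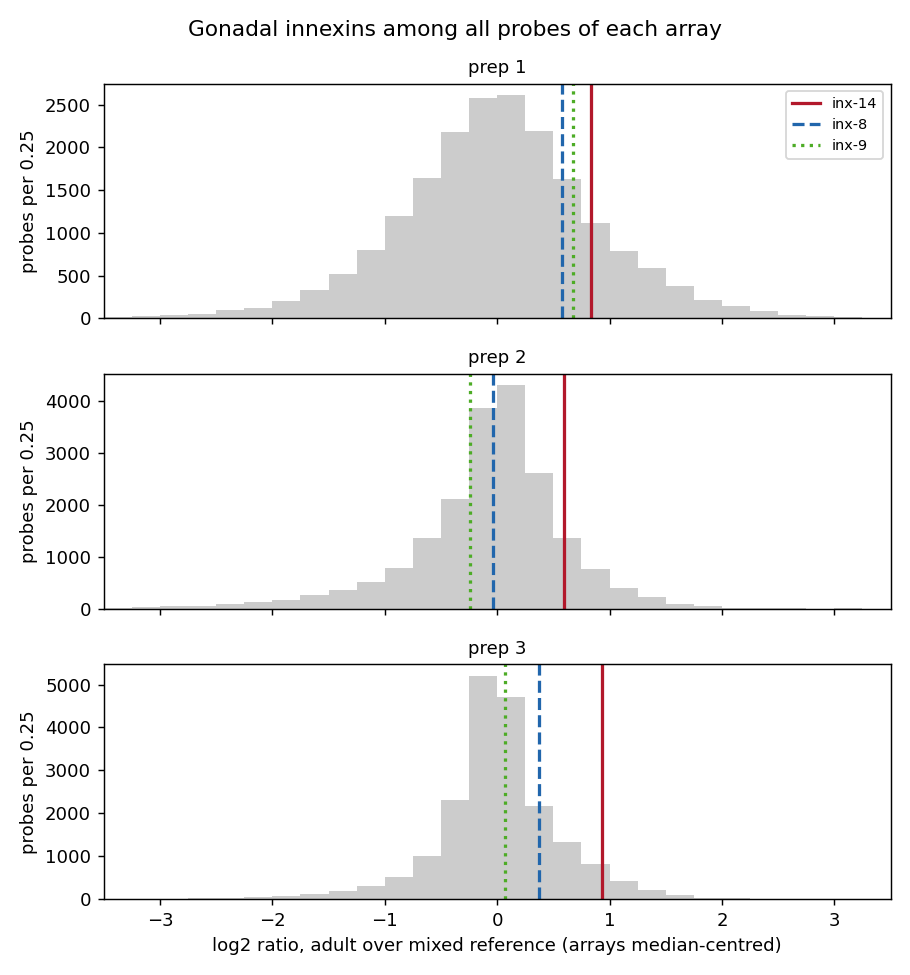
Histograms of the median-centred log2 ratios (adult over mixed reference, horizontal axis) of all 19710 probes on each array, with the number of probes per bin of 0.25 on the vertical axis. Vertical lines mark inx-14 (solid), inx-8 (dashed) and inx-9 (dotted). The axis is drawn from −3.5 to 3.5, and inx-14 lies in the right flank on each array while the sheath genes lie near the centre on prep 2.

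Among the 22 innexin genes measured, inx-14 ranked 2, 2 and 1 on preps 1, 2 and 3 by its ratio. inx-8 ranked 5, 7 and 3, and inx-9 ranked 4, 12 and 8. Were the direction of the ratios the opposite, inx-14 would rank 21, 21 and 22. Of the 19 other innexins, 1 was higher, 6 were lower and 12 did not pass in limma, beside 15.8% of all probes higher and 16.2% lower. The median of their mean log2 ratios was −0.35, against −0.0012 for all probes, and 13 of the 19 were negative on all 3 preps. Of all probes, 61.0% had the same sign on all 3 arrays, and 30.2% were positive on all 3. Minus the median of the other innexins on the same array, inx-14 was 1.35, 0.88 and 1.18 on preps 1, 2 and 3, inx-8 was 1.08, 0.24 and 0.62, and inx-9 was 1.18, 0.03 and 0.32. All 3 gonadal innexins thus lay above the median of the 19 other innexins on each prep, inx-9 by little on prep 2. Of those 19, inx-3, inx-7, inx-20, inx-16, unc-9 and inx-10 did so too, so this does not set the gonadal innexins apart.

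The other innexin with a higher ratio was inx-3, which is expressed in the embryo and the pharynx, at 1.17, 0.91 and 0.92 on preps 1, 2 and 3 (mean 1.00 ± 0.15, SD, n = 3; adjusted p in limma 0.0014). inx-14 minus inx-3 was −0.33, −0.31 and 0.02, so the order of these top genes was not the same on all preps. Next in the order of means after inx-14 and inx-8 came inx-7 at 0.27 ± 0.37, then inx-9, then inx-20 at 0.16 ± 0.17. From inx-8 to inx-20 each neighbour in this order differs by less than its spread. The genes inx-16, which acts in the intestine, and unc-9, whose channels couple body wall muscle and neurons, were near 0, at 0.05 ± 0.40 and −0.05 ± 0.21. Those of inx-10 (−0.16 ± 0.10), eat-5 (−0.19 ± 0.35), a gene of the pharynx muscle, inx-1 (−0.31 ± 0.21), che-7 (−0.32 ± 0.15), inx-17 (−0.35 ± 0.30), inx-19 (−0.35 ± 0.15), which acts in the left-right asymmetry of AWC olfactory neurons, inx-6 (−0.48 ± 0.18), another pharynx gene, and inx-5 (−0.51 ± 0.49) did not pass.

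The lowest innexin was unc-7, a neuronal gene needed for locomotion, at −1.02, −0.75 and −0.65 on preps 1, 2 and 3 (mean −0.81 ± 0.19, adjusted p in limma 0.0050). The other lower ones were inx-15 (−0.71 ± 0.37), inx-12 (−0.69 ± 0.21), inx-18 (−0.65 ± 0.17), inx-11 (−0.61 ± 0.45) and inx-13 (−0.57 ± 0.15). INX-12 and INX-13 are known from the excretory canal cell. The count of lower genes was 5 without prep 1, 2 without prep 2 and 4 without prep 3, and 7 and 8 after scaling and quantile normalization. Of all probes, 14.2%, 12.3% and 14.7% were lower without preps 1, 2 and 3. After scaling and quantile normalization these shares were 17.5% and 19.2%. The 2 of 19 lower innexins without prep 2 thus do not exceed the share of all probes in that setting. Of the 6 lower genes, unc-7 alone kept its call in each of the 9 alternative settings. inx-3 kept its call in each of the 9 alternative settings.

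**Figure D2:**
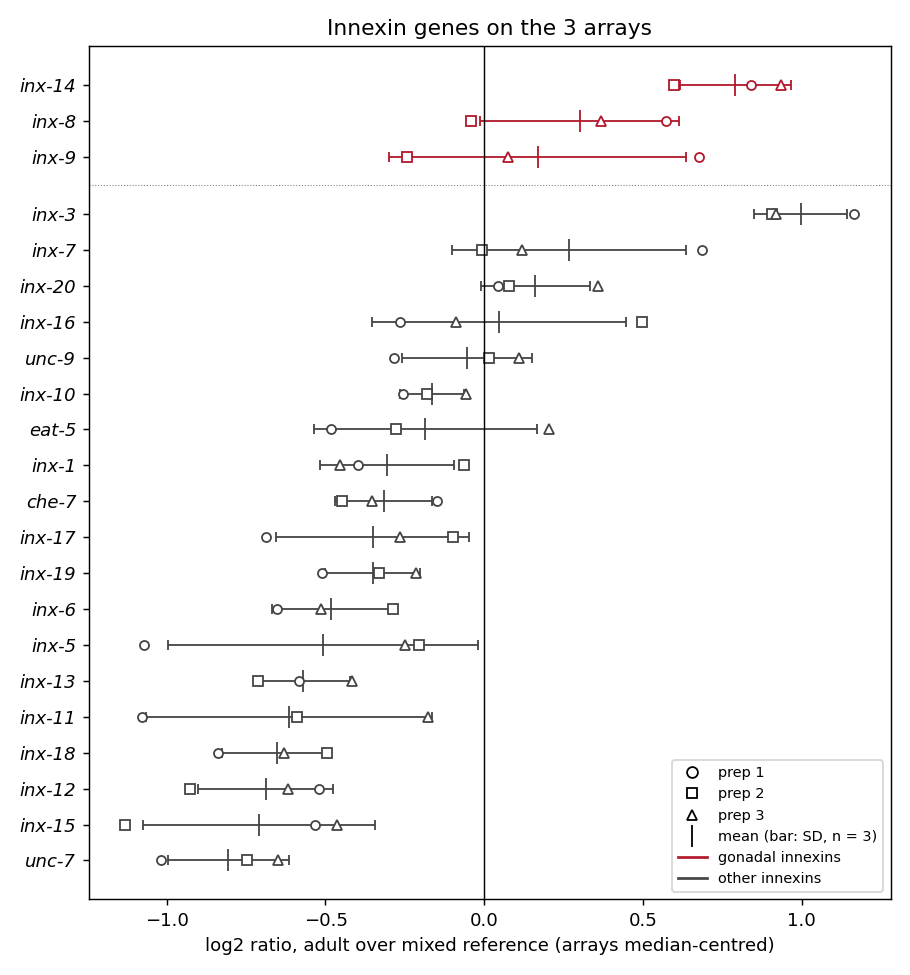
Median-centred log2 ratios (adult over mixed reference, horizontal axis) of the 3 gonadal innexins (top, red) and 19 other innexins (below, grey), sorted by mean. Circles, squares and triangles are preps 1, 2 and 3, vertical ticks are means and bars are SDs (n = 3). inx-14 and inx-3 stand to the right of 0 on all preps, inx-8 and inx-9 spread across it or to its right, and most other innexins lie to the left.

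The genes that act beside the gonadal innexins were taken as 5 lists, and listed genes without a value on all 3 arrays were not analysed here. The list for control of germ cell proliferation holds genes of Notch signalling and other germ cell regulators, not only genes that promote proliferation. Of its 12 listed genes 10 were measured and 10 were higher, where 15.8% of all probes were. Their median log2 ratio was 1.08, against −0.0012 for all probes. inx-14 at 0.79 lay near the low end of their range of 0.66 to 1.94, with ego-1 alone below it. The highest were gld-1, a translational repressor of the germ line (1.94 ± 0.74), and nos-3, a Nanos family gene (1.38 ± 0.55), and the lowest were lag-1, the DNA-binding Notch effector (0.86 ± 0.38), and ego-1, an RNA-directed RNA polymerase (0.66 ± 0.39). The call of ego-1 was lost without prep 2 (adjusted p in limma 0.135) and without prep 3 (0.164).

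Of 14 genes measured (18 listed) on the germ line side of oocyte maturation, 9 were higher (64.3%, beside 15.8% of all probes), 1 was lower (7.14%, beside 16.2%) and 4 did not pass, with a median of 0.86. The highest were lin-41, which holds back maturation (1.69 ± 1.19), and wee-1.3, an inhibitory kinase of CDK-1 (1.61 ± 0.81). The lowest were unc-43, the calcium and calmodulin dependent kinase CaMKII (−0.66 ± 0.21), and nmr-1, an NMDA receptor subunit (−0.45 ± 0.32), which did not pass (adjusted p in limma 0.092). Both of the low genes are also known from neurons. The call of unc-43 was lost without prep 2 (adjusted p 0.052).

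The counts for sheath signalling and for contraction and ovulation were as follows. Of 6 genes measured (8 listed) for sheath signalling, 0 were higher, 1 was lower (16.7%, near the 16.2% of all probes) and 5 did not pass in limma, with a median of −0.04, and 0 were higher at an unadjusted p under 0.05. The lower gene was ceh-18, a POU homeobox gene of the sheath cells, with log2 ratios of −1.98, −1.43 and −0.91 on preps 1, 2 and 3 (mean −1.44 ± 0.53, adjusted p 5.8e-04). The genes kin-1, the catalytic subunit of protein kinase A (0.23 ± 0.16), gsa-1, the stimulatory G protein alpha subunit (−0.01 ± 0.21), and kin-2, the regulatory subunit of protein kinase A (−0.23 ± 0.29), did not pass. Most of these signalling genes are used in many tissues. In RNA taken to be from whole worms, the value of ceh-18 cannot be assigned to the sheath alone. Sheath contraction and ovulation had a median of −0.13 over 14 of 15 listed genes: 1 gene was higher (7.14%, beside 15.8% of all probes), 4 were lower (28.6%, beside 16.2%), and the remaining 9 missed the threshold. This list also holds spermatheca genes and genes used below as muscle markers, so its median and counts are not those of sheath cells alone. The gene fln-1, a filamin of the spermatheca, did not pass at 0.55 ± 0.65. The lowest were lfe-2, a kinase that removes inositol trisphosphate (−0.92 ± 0.10), and spv-1, which acts in the spermatheca (−0.90 ± 0.11). The other lower ones were ipp-5 (−0.87 ± 0.34) and the inositol trisphosphate receptor gene itr-1 (−0.56 ± 0.41), whose adjusted p of 0.049 lay at the threshold and was 0.176 without prep 1.

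Of the genes of malonyl-CoA turnover, pod-2, acetyl-CoA carboxylase, had log2 ratios of 1.01, 0.11 and 0.47 on preps 1, 2 and 3 (mean 0.53 ± 0.45). mlcd-1, malonyl-CoA decarboxylase, averaged 0.43 ± 0.39, and fasn-1, fatty acid synthase, 0.33 ± 0.27. All 3 were positive on each prep, as were 30.2% of all probes, and mlcd-1 was close to 0 on prep 2 (0.007). They were highest on prep 1, the array with the widest spread. In limma 0 of 3 passed (2 of 3 at an unadjusted p under 0.05), where 15.8% of all probes were higher. pod-2 passed without prep 2 (adjusted p 0.033).

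**Figure D3:**
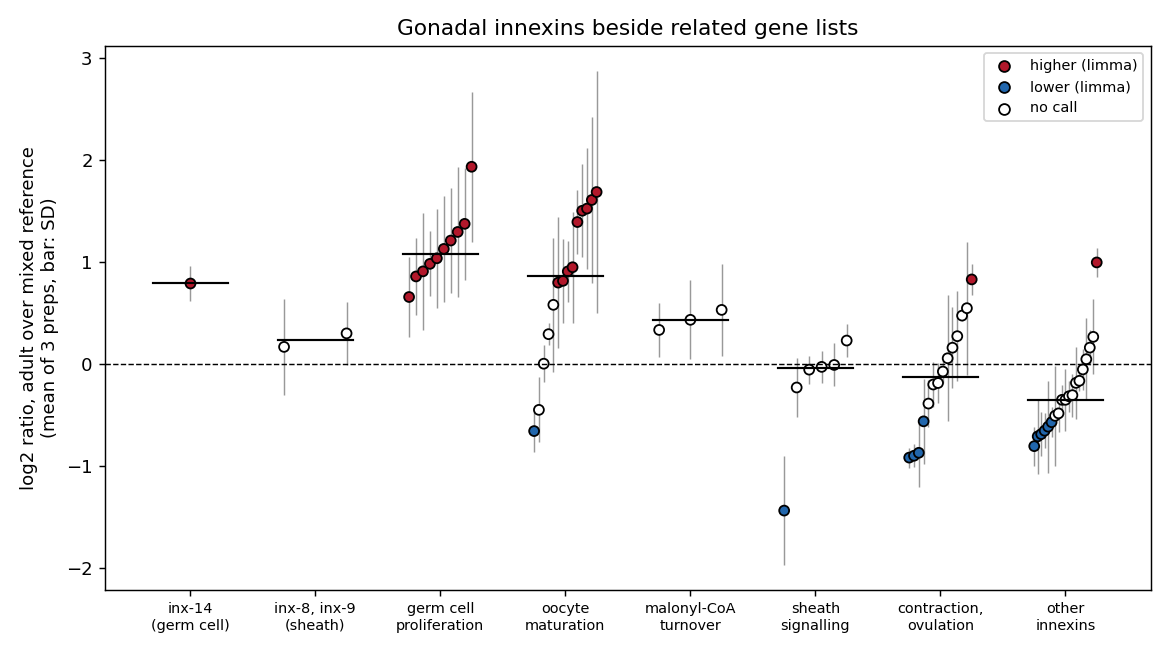
Mean log2 ratio over 3 preps (vertical axis, adult over mixed reference, arrays median-centred) of each gene, by list. Points are genes, bars are SDs over the preps (n = 3), horizontal lines are list medians, and red, blue and white fill mark higher, lower and no call in limma. inx-14 lies below the medians of both germ cell lists. inx-8 and inx-9 lie between those medians and the medians of the sheath signalling list and the contraction and ovulation list. The ranges of some of these lists overlap.

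Markers of cell types were read in the same way, since RNA came from whole worms as far as the labels say, and more cells of a type and more RNA per cell cannot be told apart in bulk RNA. Oocyte markers were higher for 4 of 4 genes, from 1.39 to 2.45, with array means of 2.49, 1.40 and 1.65 on preps 1, 2 and 3, and germ line markers for 3 of 3, from 1.67 to 2.31. The ratio of inx-14 was below each of these 7 genes. Of the sheath markers, lim-7 was at −0.06 ± 0.14 and did not pass, and ceh-18 was lower. Sperm markers, the msp genes, whose near-identical members can share probes, were lower for 29 of 30, and larval cuticle markers for 4 of 4. Of 5 embryo markers, 0 were higher in limma, also at an unadjusted p under 0.05, and 1 was lower. Of 3 muscle markers 0 passed, also unadjusted, of 3 neuron markers 1 was lower, of 3 intestine markers 1 was higher and of 3 pharynx markers 2 were lower. Of all probes 15.8% were higher and 16.2% lower, so single calls in lists of 3 are not read further. The oocyte marker means and the sheath innexins both had their highest ratios on prep 1 and lowest on prep 2. Prep 1 also had the widest spread over all probes, and inx-14 was highest on prep 3 and lowest on prep 2. The part of germ line content in the innexin ratios was not tested.

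The genes whose values were most like those of each member were found by Euclidean distance over the 3 centred log2 ratios, among 15087 other genes. Nearest to inx-14 were lido-12, at a distance of 0.046 (mean 0.77 ± 0.17), and algn-9, at 0.056 (mean 0.81 ± 0.15). Nearest to inx-8 were grd-5 (0.050) and pst-2 (0.063), and nearest to inx-9 were ubq-2 (0.059) and zhit-2 (0.072). With 3 values per gene, close matches are common, and the distance says nothing of shared function. inx-8 and inx-9 were 0.37 apart, and 935 other genes lay nearer to inx-8 than inx-9 did.

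**Figure D4:**
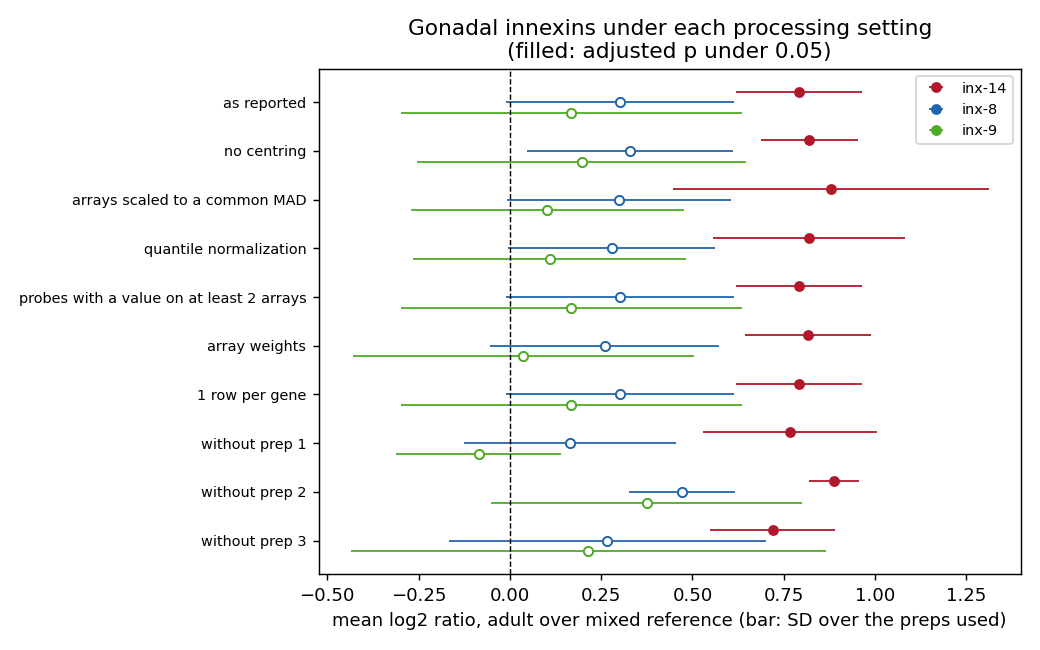
Mean log2 ratio (horizontal axis, adult over mixed reference) of inx-14, inx-8 and inx-9 as reported and under 9 alternative settings (rows), with bars for the SD over the preps used. Filled points passed an adjusted p of 0.05 in limma. inx-14 passed in each row, with means from 0.72 to 0.89, and inx-8 and inx-9 passed in none.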

How the data were processed

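The authors deposited 1 table with a column per array and 20000 probes. Their normalization, filtering and centring are not stated in the labels. The deposited values are log2 ratios: read as such, 100% of the ratios under 3 are multiples of 0.001 within 0.00005. No spot brightness was at hand to remove dim spots, and the number of arrays limits the precision. Of the probes, 15655 had 1 gene in the platform annotation, 198 had several and were left unnamed, and 4147 carry no name here. Current symbols came from the RefSeq gene table of WBcel235, matched by ID (15569 probes) or accession (7).

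Arrays were centred on their median over the 19710 probes with a value on all 3, and an intercept was fitted with limma 3.58.1 in R 4.3.3 (lmFit and eBayes, two-sided, Benjamini-Hochberg over all probes), after tests on simulated data. The variance of each probe was drawn toward that of all probes, with 8.96 prior against 2 residual degrees of freedom. Intervals and p-values therefore rest more on the probes as a whole than on the spread of 1 probe. A gene with several probes takes their mean and the largest adjusted p. No batch was fitted, since each array is its own prep. The members and lists were chosen with earlier results of these data known. Named genes are the members, all other innexins, the 2 highest and 2 lowest of each list, and the 2 nearest genes of each member. ipp-5, itr-1, lim-7 and lin-3 were named after their values were seen. Of the genes this rule names, 1 is not reported here.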

Additional observations from a re-analysis of the deposited data

How the results depend on the processing

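inx-14 kept its direction and its call in each of the 9 alternatives (no centring, scaling to a common spread, quantile normalization, probes on at least 2 arrays, array weights, 1 row per gene, and each prep left out), with means from 0.72 to 0.89 and adjusted p-values in limma from 5.6e-04 to 0.045, the last without prep 3. inx-8 and inx-9 passed in none of them, and inx-9 turned to −0.09 without prep 1. With preps left out in turn, inx-8 ranged from 0.16 to 0.47, inx-9 from −0.09 to 0.37, inx-14 from 0.72 to 0.89, and sheath minus germ cell innexins from −0.73 to −0.46. Other innexins that were lower numbered 2 to 5 of 19 with a prep left out, where 12.3% to 14.7% of all probes were lower. In the oocyte maturation list 8 to 10 of 14 genes were higher with a prep left out, where 12.7% to 13.8% of all probes were, and 0 to 1 gene was lower. In the malonyl-CoA list 1 gene was higher after quantile normalization, and 0 to 1 with a prep left out. In the contraction and ovulation list 2 genes were higher without centring, after scaling, after quantile normalization, with array weights and without any 1 of the preps. The added gene was lin-3, the EGF ligand, in the first 4 settings and without prep 1, and fln-1 without prep 2 or prep 3. Over the 72 other named genes and list members, 617 of 648 values stayed on their side of the threshold, 17 lost a call, 14 gained one and 0 called values turned sign. The causes were not tested. Each log2 ratio already pairs adult and reference RNA on 1 array. Pairing between groups was not possible because the series has 1 group.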
